A study of Homo sapiens with 8 samples.

Results

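The genes described are 8 of the polyamine system, taken by symbol from both count tables of the series: ODC1, AMD1, SRM and SMS, which make polyamines, OAZ1, OAZ2 and AZIN1, which control ODC1, and SAT1, which starts polyamine breakdown. All 8 are present in both tables, out of 12873 symbols that the tables share. The series measured total RNA (RNA-seq) and ribosome-protected fragments (Ribo-seq) in SH-SY5Y cells, a line that was derived from a human neuroblastoma. Cells with a hairpin RNA against RPS29, a protein of the small ribosomal subunit (shRPS29, 2 libraries per assay), were compared with cells carrying a control hairpin (shCONT, 2 libraries per assay). The labels give no drug treatment, no time after knockdown and no hairpin sequence, and they do not say whether replicates came from separate cultures, so p-values measure the spread between these libraries, which may be technical.

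Polyamines are small positively charged molecules that bind RNA and support protein synthesis and cell growth. Ornithine decarboxylase makes putrescine, and spermidine synthase and spermine synthase extend it with aminopropyl groups supplied by the product of AMD1. The system is controlled largely during translation: polyamines promote the ribosomal frameshift that full-length antizyme needs, antizyme sends ODC1 protein to the proteasome, and upstream reading frames in the AMD1 and AZIN1 messages hold back their translation when polyamines are plentiful. In neuroblastoma ODC1 is known as a transcription target of MYC proteins.

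In these bulk samples fewer cells of a type and less RNA per cell cannot be told apart. In RNA, the enzymes ODC1 and SRM were higher in shRPS29 cells and both antizymes were lower. AZIN1 and AMD1 were also lower, and SMS and SAT1 did not pass the test. Of the 8 genes, 2 were called higher and 4 lower, against 14.4% higher, 16.3% lower and 30.7% in either direction among all 14723 genes tested. Calls are at an adjusted p below 0.05 in edgeR's quasi-likelihood test over all genes. The median log2 change was -0.05 over the 8 genes and 0.01 over all genes tested. The median SE was 0.0726 over the 8 genes and 0.108 over all genes tested, so small changes passed more readily in the 8. The share over all genes is therefore not a like comparison. None of the 8 had a called change in footprints or in footprints per RNA, in assays with far fewer counts: summed over the 8 genes, the shRPS29 libraries held 32649 and 28803 RNA-seq counts and 253 and 726 Ribo-seq counts, against 28940 and 29740 RNA-seq counts and 612 and 667 Ribo-seq counts in shCONT.

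Knockdown was visible in the target itself. RPS29 RNA was at 7.53 and 6.46 CPM (counts relative to the TMM-scaled library total) in shRPS29 libraries and at 137 and 160.1 CPM in shCONT libraries, a log2 change of -4.40 (SE 0.115, edgeR adjusted p = 6.32e-12). RNA-seq libraries held 17539104 to 19156104 counts and Ribo-seq libraries 2630463 to 4375971, of which 4 genes took 35.3 to 52.3%. Replicate 1 of shRPS29 in Ribo-seq stood apart from the other 3 footprint libraries, with Spearman correlations across genes of 0.732 to replicate 2 and 0.528 and 0.455 to the controls, against 0.827 between the controls. Replicate 2 of shRPS29 correlated at 0.743 and 0.692 with control replicates 1 and 2, so it was no nearer to its own replicate than to control replicate 1. Noradrenergic neuroblastoma markers were present in RNA, 9 of 10 at a level that was tested, and their summed level was 7259 to 7314 CPM in shRPS29 and 7117 to 7355 CPM in shCONT. TH had at most 4 RNA-seq counts in a library. Of 3 listed blood, 2 epithelial and 1 endothelial markers no RNA-seq library had more than 27 counts. Among these CD14 was called higher, with 27 and 25 counts in shRPS29 and 7 and 12 in shCONT, and CDH1 lower, with 2 and 1 counts in shRPS29 and 11 and 20 in shCONT. Some such markers had more counts in Ribo-seq than in RNA-seq. PTPRC had 63 and 35 in shRPS29 and 6 and 24 in shCONT, PECAM1 had 47 and 56 in shRPS29 and 25 and 4 in shCONT, and LYZ had 56 and 82 in shRPS29 and 172 and 53 in shCONT. None of these 3 was called in Ribo-seq. The 4 fibroblast markers summed to 79.3 to 80.4 RNA CPM in shRPS29 and 96.7 to 97.4 CPM in shCONT, but went both ways: LUM was called higher (log2 change 0.60, edgeR adjusted p = 0.0194), COL1A1 (-0.32) and PDGFRB (-0.44) lower, and DCN (0.30) was not called. The part of these markers in the results was not tested.

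The DNA just before the transcription starts of the 2 genes called higher and of both antizymes is shown first, since ODC1 and SRM are both known as MYC-regulated genes and rose together while OAZ1 and OAZ2 fell together. Sequences are from RefSeq (GRCh38.p14), 5′ to 3′ on the gene's strand, with the canonical E-box CACGTG, the motif that MYC and MAX bind, in capitals. The motif reads the same on both strands, and it was chosen after the RNA values were seen.
ODC1, the 30 bases before its downstream start, chr2:10448013-10448042, minus strand: gCACGTGtgcggcgcgcctcgccggcctgc
SRM, the 250 bases before its start, chr1:11060019-11060268, minus strand: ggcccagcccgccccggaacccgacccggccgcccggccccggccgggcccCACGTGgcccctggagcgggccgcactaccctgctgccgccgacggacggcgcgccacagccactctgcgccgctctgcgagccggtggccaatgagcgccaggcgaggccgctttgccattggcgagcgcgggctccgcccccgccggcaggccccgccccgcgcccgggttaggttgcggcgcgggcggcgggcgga
OAZ1, the 250 bases before its start, chr19:2269236-2269485, plus strand: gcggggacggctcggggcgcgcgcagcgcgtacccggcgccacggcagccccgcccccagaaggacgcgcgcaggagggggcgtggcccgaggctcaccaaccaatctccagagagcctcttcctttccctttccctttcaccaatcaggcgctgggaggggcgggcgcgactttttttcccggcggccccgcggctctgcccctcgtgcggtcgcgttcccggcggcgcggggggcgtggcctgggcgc
OAZ2, the 250 bases before its start, chr15:64703282-64703531, minus strand: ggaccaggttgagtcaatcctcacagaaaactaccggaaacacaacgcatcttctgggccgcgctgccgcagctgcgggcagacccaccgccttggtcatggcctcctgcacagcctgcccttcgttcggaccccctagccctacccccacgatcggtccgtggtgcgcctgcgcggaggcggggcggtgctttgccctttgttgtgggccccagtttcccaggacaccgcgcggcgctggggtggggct
The RefSeq table held upstream windows for 7 of the 8 genes, 10 windows in all. An E-box lay in 1 window each of ODC1, beginning 29 bases before its downstream start, and SRM, beginning 199 bases before its start. The window before the upstream start of ODC1 and the windows of AMD1, OAZ1, OAZ2, SAT1 and SMS held no match. Among all promoter windows of this length 6.34% held the motif, and 7.73% of genes had it in at least 1 window. A match is a run of letters and says nothing of what binds there.

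ODC1 (chromosome 2, positions 10439968 to 10448327 in GRCh38.p14) encodes ornithine decarboxylase, the rate-limiting enzyme of the pathway. Its RNA was at 427 and 413 CPM in shRPS29 libraries and at 339.6 and 336 CPM in shCONT libraries. Both knockdown libraries lay above both controls, and ODC1 rose 1.24-fold, a log2 change of 0.31 (SE 0.0694, 95% interval 0.17 to 0.46, edgeR adjusted p = 0.00317). The call ended without either control replicate (adjusted p = 0.102 without replicate 1 and 0.123 without replicate 2), while the log2 change stayed at 0.32 and 0.31. The span of ODC1 holds the small nucleolar RNA gene SNORA80B (chr2:10446714-10446849), which neither table lists as a gene of its own, and its part in the ODC1 counts was not tested.

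SRM (chromosome 1, positions 11054589 to 11060018) encodes spermidine synthase. It had the largest increase of the 8 genes that was called, with 320.4 and 311 CPM in shRPS29 libraries and 200.04 and 210.1 CPM in shCONT libraries. The groups were well separated, a 1.54-fold rise (log2 change 0.62, SE 0.0695, edgeR adjusted p = 1.43e-05). SMS (X chromosome, positions 21940709 to 21994837), which encodes spermine synthase and acts on the product of SRM, had 148 and 133.3 CPM in shRPS29 libraries and 132.8 and 129.7 CPM in shCONT libraries. Its knockdown replicate 2 lay barely above the controls, and its log2 change of 0.10 was not called (95% interval -0.06 to 0.26, edgeR adjusted p = 0.337). It was called without shRPS29 replicate 2 (log2 change 0.18, adjusted p = 0.0206).

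AMD1 (chromosome 6, positions 110814617 to 110895713) encodes S-adenosylmethionine decarboxylase, the supplier of aminopropyl groups. Its RNA was at 115 and 107 CPM in shRPS29 libraries and at 136 and 133 CPM in shCONT libraries. Both knockdown libraries were lower, and AMD1 fell to 0.827-fold (log2 change -0.27, SE 0.0725, edgeR adjusted p = 0.0102). The call ended without control replicate 1 (adjusted p = 0.142) or control replicate 2 (adjusted p = 0.0993). The start of AMD1 overlaps the gene CDK19, and its span holds SNORA40C, so reads there cannot be assigned from gene totals. The pseudogene AMD1P3, listed in RNA-seq, may also share reads with it.

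The antizymes had the largest decreases of the 8 genes. OAZ1 (chromosome 19, positions 2269486 to 2273488), the main antizyme of most tissues, was at 332 and 305 CPM in shRPS29 libraries and at 429 and 439 CPM in shCONT libraries, a fall to 0.734-fold (log2 change -0.45, SE 0.0727, edgeR adjusted p = 3.37e-04). OAZ2 (chromosome 15, positions 64687574 to 64703281), a second antizyme, was at 100.1 and 91.9 CPM in shRPS29 libraries and at 136 and 146 CPM in shCONT libraries. It fell to 0.681-fold (log2 change -0.55, SE 0.0770, edgeR adjusted p = 9.25e-05). In both antizymes each knockdown library was below each control.

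AZIN1 (chromosome 8, positions 102826302 to 102864200) encodes antizyme inhibitor, a relative of ODC1 without enzyme activity that binds antizyme and so spares ODC1. Its RNA was at 226 and 222 CPM in shRPS29 libraries and at 254 and 260.3 CPM in shCONT libraries. The groups did not overlap, but the difference was small, a log2 change of -0.20 (SE 0.0678, edgeR adjusted p = 0.0380), and the call ended without control replicate 1 (adjusted p = 0.271), without control replicate 2 (0.372) and with the replicate number as a block (0.118). SAT1 (X chromosome, positions 23783173 to 23786210) encodes the acetyltransferase that marks spermidine and spermine for export or oxidation. With 90 and 100 counts in shRPS29 libraries and 74 and 60 in shCONT libraries it had the fewest counts of the 8 genes. Its level was 4.61 and 5.52 CPM in shRPS29 and 4.17 and 3.34 CPM in shCONT, and the log2 change of 0.43 was not called (95% interval -0.10 to 0.95, edgeR adjusted p = 0.211). In RNA the groups did not overlap for any of the 8 genes, 4 higher and 4 lower, but this held for 65.2% of all genes tested (32.3% higher, 32.9% lower).

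**Figure D1:**
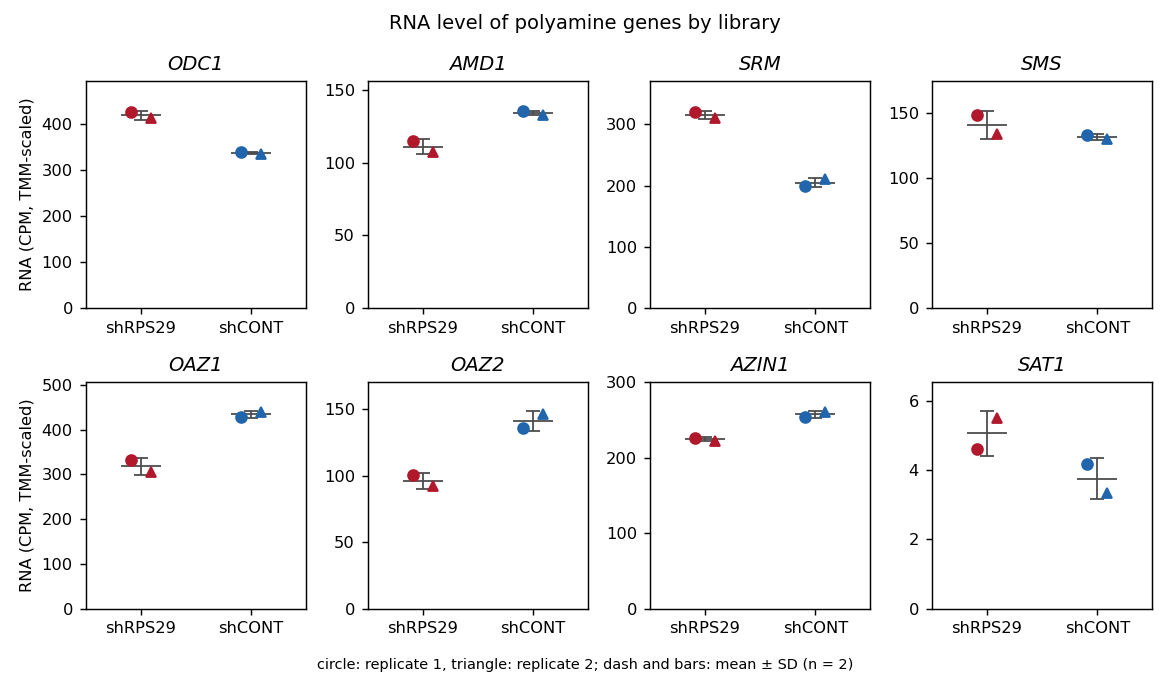
RNA level of each polyamine gene in CPM (y axis, from 0) in shRPS29 and shCONT libraries, with the mean and SD of 2 replicates. SRM and ODC1 lie higher in shRPS29, at 320.4 and 311 CPM and at 427 and 413 CPM, and OAZ1, OAZ2, AMD1 and AZIN1 lie lower.

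Because scaling between libraries drops out of a ratio of 2 genes counted in the same library, the balance of ODC1 against its controllers was also read from raw RNA-seq counts. For each OAZ1 count there were 1.29 and 1.35 ODC1 counts in shRPS29 libraries and 0.792 and 0.765 in shCONT libraries. For each OAZ2 count there were 4.27 and 4.50 ODC1 counts in shRPS29 and 2.50 and 2.30 in shCONT, and for each AZIN1 count 1.89 and 1.86 in shRPS29 and 1.34 and 1.29 in shCONT. ODC1 RNA was thus higher in the knockdown relative to its inhibitors and to the inhibitor of those inhibitors. The ratio of OAZ1 to OAZ2 was 3.32 in both shRPS29 libraries and 3.16 and 3.003 in shCONT libraries, a smaller shift than those of ODC1. SRM counts per SMS count were 2.16 and 2.33 in shRPS29 and 1.51 and 1.62 in shCONT. These ratios restate the changes above without library scaling, and no test was made on them. A ratio shows unequal change and not which gene changed.

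**Figure D2:**
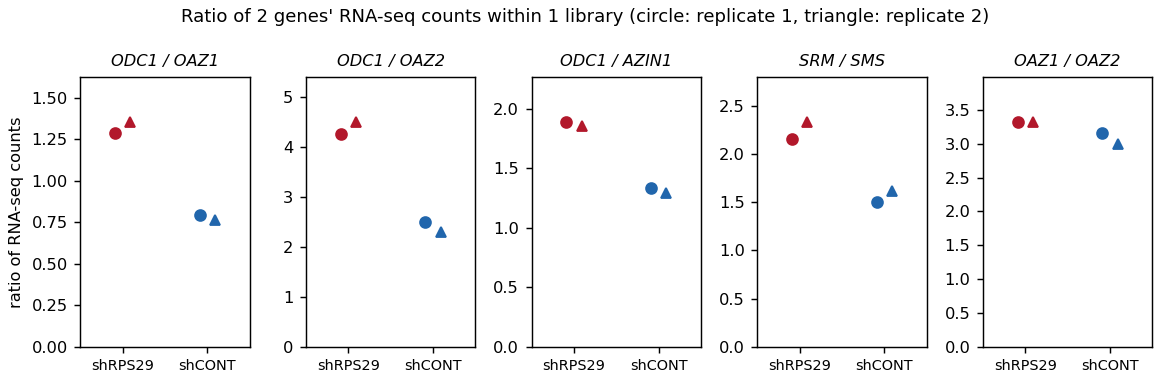
Ratio of the RNA-seq counts of 2 genes within 1 library (y axis, from 0) for 5 gene pairs in shRPS29 and shCONT libraries. ODC1 per OAZ1 lies at 1.29 and 1.35 in shRPS29 against 0.792 and 0.765 in shCONT, while OAZ1 per OAZ2 moves least.

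The second question was whether ribosome occupancy of these messages changed. In Ribo-seq 0 of the 8 genes were called higher and 0 lower, against 7.96% higher, 0.607% lower and 8.57% in either direction among 11853 genes tested with edgeR. DESeq2 and limma-voom also called none, and 1 gene, OAZ2, had an unadjusted p below 0.05 in edgeR, as did 23.1% of all genes tested. Footprints of OAZ2 numbered 2 and 22 in shRPS29 libraries and 38 and 47 in shCONT libraries. This is 0.832 and 5.52 CPM in shRPS29 and 11.3 and 14.3 CPM in shCONT, a log2 change of -1.93 (95% interval -3.85 to -0.02, edgeR adjusted p = 0.212). OAZ2 and AZIN1 were the 2 genes whose groups did not overlap, both lower, and no overlap in that direction was seen for 26.7% of all genes tested. AZIN1 had 76 and 261 footprints in shRPS29 libraries and 249 and 343 in shCONT libraries, or 31.6 and 65.5 CPM against 74.3 and 104 CPM, with a log2 change of -0.87 (95% interval -2.06 to 0.32, edgeR adjusted p = 0.388). Both values moved with the shRPS29 library left out. The log2 change of OAZ2 was -1.20 without replicate 1 and -3.95 without replicate 2, and that of AZIN1 was -0.43 without replicate 1 and -1.57 without replicate 2.

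For the other 6 genes the groups overlapped. OAZ1 had 5 and 86 footprints in shRPS29 libraries, 2.08 and 21.6 CPM, and 60 and 86 in shCONT libraries, 17.9 and 26.1 CPM. Its low value came from the library that stands apart, and replicate 2 lay between the controls. The log2 change of -0.86 (edgeR adjusted p = 0.562) was -0.017 without that library and -3.45 without replicate 2. ODC1 had 37 and 148 footprints in shRPS29, 15.4 and 37.1 CPM, and 146 and 98 in shCONT, 43.6 and 29.7 CPM. Its log2 change was -0.47 (95% interval -1.71 to 0.77, edgeR adjusted p = 0.692). Without shRPS29 replicate 1 it was 0.03, so its direction rested on that library. SRM had 21 and 119 footprints in shRPS29 and 51 and 25 in shCONT, a log2 change of 0.77 that became -0.46 without shRPS29 replicate 2. SMS had 21 and 12 footprints in shRPS29 and 40 and 26 in shCONT. SAT1 had 4 and 43 in shRPS29 and 12 and 0 in shCONT, and its log2 change of 1.80 became -0.19 without shRPS29 replicate 2.

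AMD1 had 87 and 35 footprints in shRPS29 libraries and 16 and 42 in shCONT libraries, or 36.2 and 8.78 CPM in shRPS29 and 4.77 and 12.7 CPM in shCONT. Its highest level was in shRPS29 replicate 1, and the log2 change of 1.34 was not called (95% interval -0.25 to 2.93, edgeR adjusted p = 0.307). Without that library the log2 change was 0.01. Counts on genes with almost no RNA differed between groups too. Over 1280 protein-coding genes at or below 0.1 RNA CPM the median was 0.355 and 0.268 footprint counts per kb of gene span in shRPS29 libraries and 0.0830 and 0.0464 in shCONT libraries. Scaled to the 81.1 kb span of AMD1 this is 28.8 and 21.7 counts in shRPS29, where 87 and 35 were seen, and 6.73 and 3.76 in shCONT, where 16 and 42 were seen. For SMS, with a span of 54.1 kb, it is 19.2 and 14.5 counts in shRPS29, against 21 and 12 seen. For the short genes ODC1, OAZ1, SRM and SAT1 it is at most 2.97 counts in any library. In shRPS29 replicate 1 it is 2.97 against 37 seen for ODC1 and 1.42 against 5 seen for OAZ1. There it is 1.93 against 21 seen for SRM and 1.08 against 4 seen for SAT1. For OAZ2 it is 5.57 and 4.20 counts in shRPS29, where 2 and 22 were seen, and 1.30 and 0.729 in shCONT, where 38 and 47 were seen. For AZIN1 it is 13.4 and 10.1 counts in shRPS29, against 76 and 261 seen, and 3.15 and 1.76 in shCONT, against 249 and 343 seen. The background is rough because genes under 3 counts in total have no row in the table, and its part in the results was not tested.

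**Figure D3:**
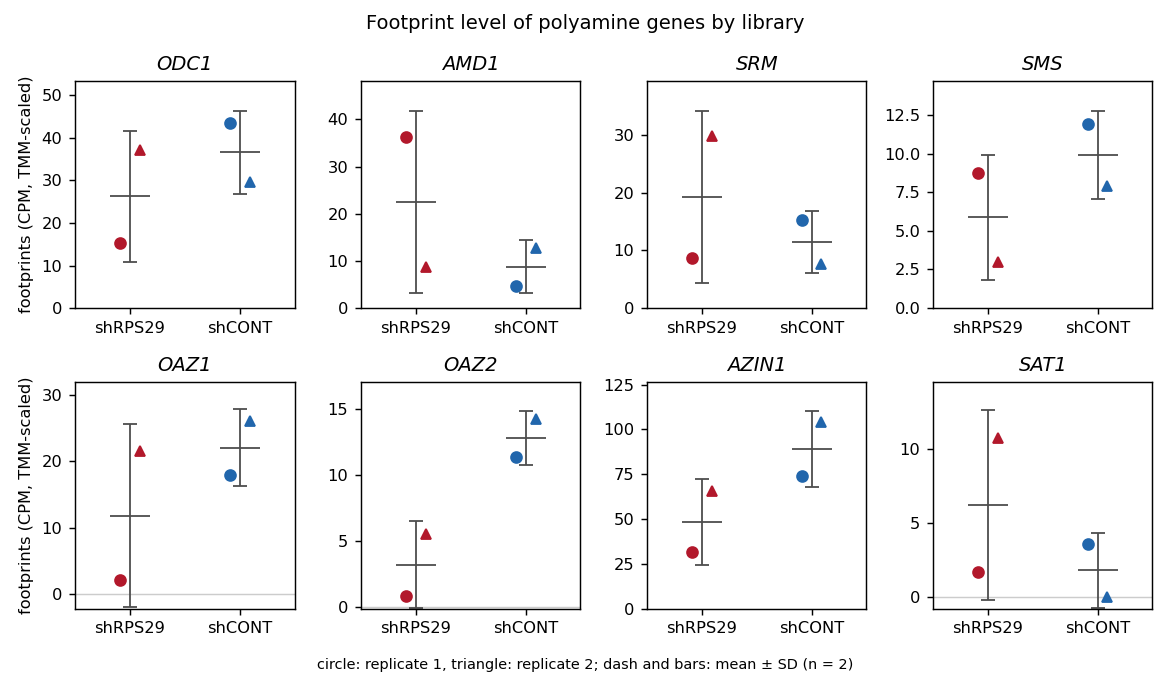
Footprint level of each polyamine gene in CPM (y axis) in shRPS29 and shCONT Ribo-seq libraries, with the mean and SD of 2 replicates. Replicates of shRPS29 lie far apart for OAZ1 (2.08 and 21.6 CPM), SRM, SAT1 and AMD1, and OAZ2 and AZIN1 alone show no overlap between the groups.

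The third comparison set the footprint change against the RNA change of the same gene, as an interaction in 1 edgeR model over all 8 libraries. Here 0 of the 8 genes were called higher and 0 lower, against 3.01% higher, 0.873% lower and 3.89% in either direction among 10648 genes, and 0 had an unadjusted p below 0.05, against 26.0% of those genes. The log2 change in footprints per RNA was -0.66 for ODC1 (95% interval -1.89 to 0.57, edgeR adjusted p = 0.475), -0.24 for OAZ1 (-2.28 to 1.80), -1.18 for OAZ2 (-2.69 to 0.33), -0.55 for AZIN1 (-1.61 to 0.52) and 1.72 for AMD1 (-0.25 to 3.68, adjusted p = 0.248). SRM was at 0.29 (-1.31 to 1.89), SMS at -0.84 (-2.21 to 0.53) and SAT1 at 1.505 (-2.14 to 5.15). Each of the 8 intervals extends past a 2-fold change in at least 1 direction. With shRPS29 replicate 2 left out of Ribo-seq, the log2 change was 2.45 for AMD1, -1.44 for ODC1, -2.82 for OAZ1 and -3.24 for OAZ2. For AZIN1 it was -1.17, for SRM -0.88, for SMS -0.16 and for SAT1 -0.42. That fit rests on shRPS29 replicate 1 alone, the library that stands apart. With that library left out instead, the values were 0.36, -0.22, 0.50, -0.58, -0.16, 0.84, -1.74 and 2.22 in the same order.

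**Figure D4:**
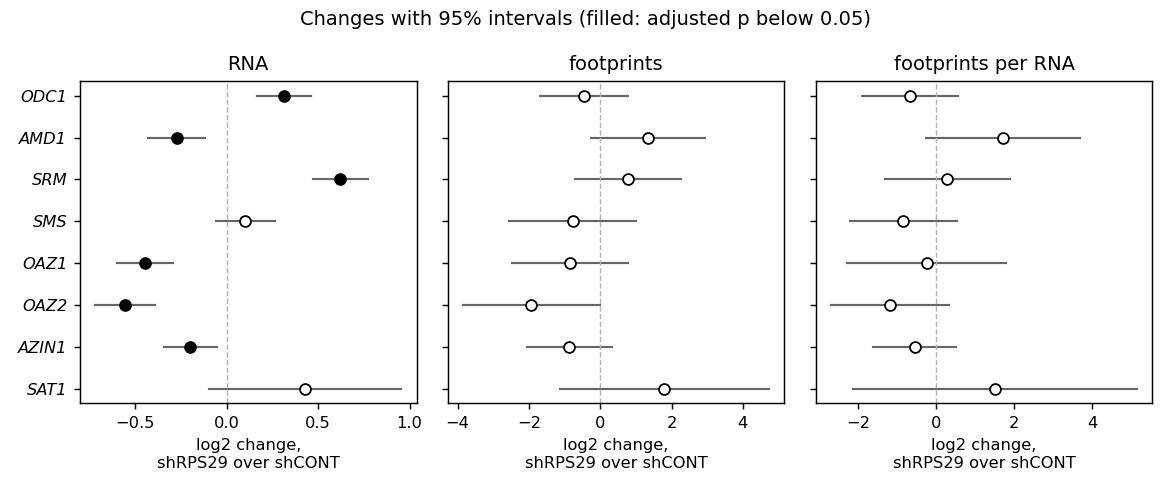
Log2 change, shRPS29 over shCONT, of RNA, footprints and footprints per RNA for each polyamine gene (x axis, a different range in each panel) with 95% intervals. Filled points mark the 6 genes called in RNA, no point is filled in the other panels, and intervals there are several times wider.

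Before any comparison between groups, most of these messages carried few footprints for their RNA. The ratio of mean footprint CPM to mean RNA CPM was below the median of all 10648 genes for 7 of the 8 genes in shRPS29 (median 0.262) and for 6 of the 8 in shCONT (median 0.281). OAZ1 stood at 0.0371 in shRPS29 and 0.0507 in shCONT, which is the 2.31 and the 2.43 percentile. ODC1 stood at 0.0625 in shRPS29 and 0.109 in shCONT, SRM at 0.0611 and 0.0556, SMS at 0.0417 and 0.0755, and OAZ2 at 0.0331 and 0.0908. AMD1 was at 0.202 in shRPS29 and 0.0652 in shCONT, a percentile of 40.4 and of 4.26. AZIN1 was near the middle, at 0.217 in shRPS29 and 0.347 in shCONT, and SAT1 was high, at 1.23 and 0.477, from few counts. RNA reads come from the whole message and footprints from its translated part, so the ratio also falls with the share of untranslated sequence. The median was taken over genes of all RNA levels. Apart from SAT1, at the 20.9 percentile of RNA level, the genes lay between the 87.1 (OAZ2) and the 97.5 percentile (ODC1 and OAZ1). No comparison with genes of like RNA level was made, so low ratios are not shown to be particular to these genes. The order of genes is a description without a test. Reading frame and position are lost in gene totals, so frameshifting on the antizymes and footprints on upstream frames of AMD1 and AZIN1 could not be read.

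Of 22 further genes of the pathway, 19 were tested in RNA, with 3 higher and 2 lower and a median log2 change of 0.06, against 30.7% called in either direction among all genes tested. Transport genes gave the largest RNA changes. SLC3A2, the heavy chain of amino acid exchangers that is also linked to polyamine transport, was at 144 and 142 CPM in shRPS29 and 81.5 and 95.7 CPM in shCONT (log2 change 0.69, SE 0.0829, edgeR adjusted p = 2.54e-05). ATP13A3, an ATPase of polyamine uptake, was at 132 and 147 CPM in shRPS29 and 96.6 and 98.3 CPM in shCONT (0.52, SE 0.0769, adjusted p = 1.55e-04). In footprints the log2 change was -0.80 for SLC3A2, against the direction of its RNA, and 0.70 for ATP13A3, and neither was called. In RNA the lysosomal polyamine exporter ATP13A2 (0.06) and the arginine transporter SLC7A1 (-0.19, adjusted p = 0.0760) were not called.

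Of 8 genes of precursor supply, 6 were tested and 2 fell: MAT2A, which makes S-adenosylmethionine, with 154 and 150.5 CPM in shRPS29 and 200.3 and 194 CPM in shCONT (log2 change -0.37, edgeR adjusted p = 9.08e-04), and AHCY, which clears S-adenosylhomocysteine (-0.21, adjusted p = 0.0349). The AHCY call ended without control replicate 1 (adjusted p = 0.387) or 2 (0.227) and with the replicate block (0.107). MAT2B (-0.15), MTAP (0.10), ARG2 (-0.05) and AGMAT (0.42) were not called. Of the 3 further breakdown genes, SMOX, the spermine oxidase (0.37, adjusted p = 0.0714), PAOX (-0.08) and SAT2 (0.08), none was called, and neither was OAZ3 (0.17) or AZIN2 (-0.03). Of the 4 genes of hypusine, the spermidine-derived residue of the translation factor EIF5A, DOHH alone was called (0.25, adjusted p = 0.0409), a call that ended with DESeq2 (adjusted p = 0.111), without any count filter (0.0508), with the replicate block (0.0736), and without shRPS29 replicate 1 (0.0529), control replicate 1 (0.115) or control replicate 2 (0.363). EIF5A itself was at 1128 and 1013 CPM in shRPS29 and 1009 and 1058 CPM in shCONT, a log2 change of 0.05. In Ribo-seq 17 of the 22 were tested and 0 were called by edgeR, with 4 at an unadjusted p below 0.05, close to the 23.1% of all genes tested.

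Of the genes that regulate ODC1 transcription, MYC was at 107 and 91.2 CPM in shRPS29 and 116 and 110.02 CPM in shCONT, a log2 change of -0.19 that was not called (edgeR adjusted p = 0.105). MYCN, low in these libraries, had 35 and 32 counts in shRPS29 and 89 and 54 in shCONT, and fell (-1.17, adjusted p = 0.0143), a call that ended without control replicate 1 (-0.76, adjusted p = 0.244). MAX, the partner of MYC proteins on DNA, rose, with 82.04 and 73.9 CPM in shRPS29 and 65.4 and 55.7 CPM in shCONT (0.37, adjusted p = 0.00741). Its call ended without control replicate 2 (0.25, adjusted p = 0.172). ODC1 and SRM, the 2 genes with an E-box in a window above, were the 2 polyamine genes called higher. This describes the 7 genes with a window and is no test, since the motif was chosen with these calls known. A part of MYC proteins in the RNA changes was not tested.

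**Figure D5:**
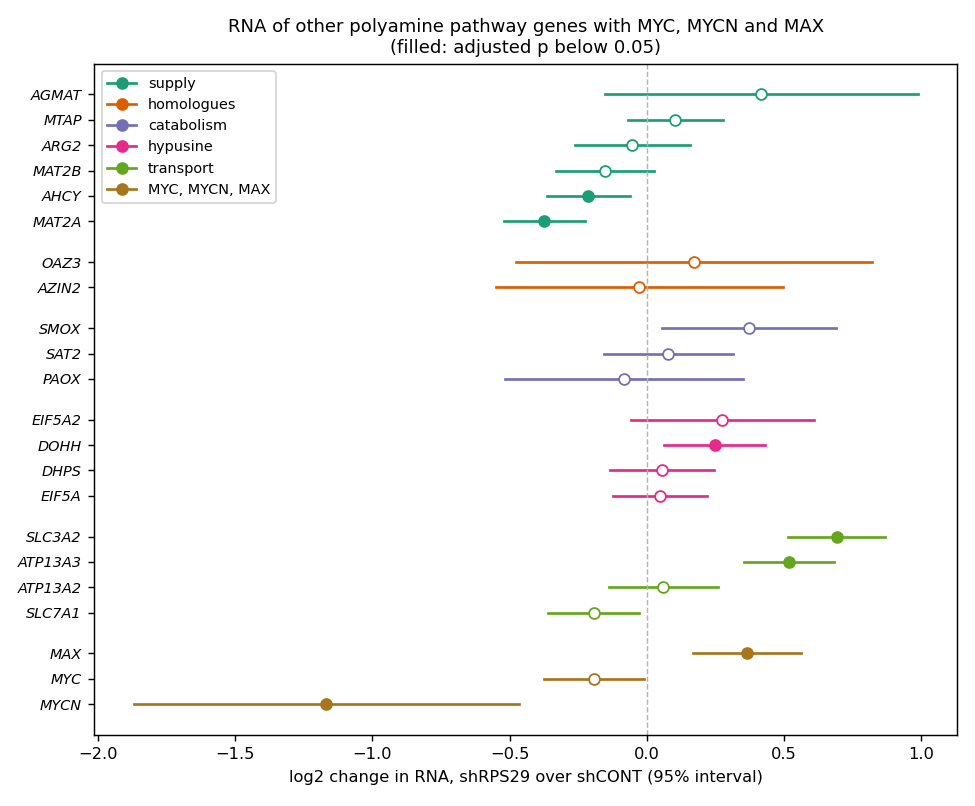
Log2 change in RNA, shRPS29 over shCONT (x axis, 95% intervals), of the 19 further pathway genes tested and of MYC, MYCN and MAX, coloured by group. Filled points passed the test: SLC3A2, ATP13A3, DOHH and MAX were higher and MAT2A, AHCY and MYCN lower.

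Over all 8 libraries, with each assay centred on the gene's mean, the genes with profiles nearest to ODC1 among 5785 genes at or above 10 CPM in both assays were BTBD2, the RNA polymerase I subunit gene POLR1E and the CTP synthase gene CTPS1, at Euclidean distances of 0.246, 0.248 and 0.249 in log2 CPM. Of these CTPS1 alone was called in RNA (log2 change 0.27, edgeR adjusted p = 0.0129). Nearest to OAZ1 were TPGS2, the kinase gene CHUK and the cap-binding protein gene NCBP2, at distances of 0.496, 0.526 and 0.528. In RNA TPGS2 (-0.27, edgeR adjusted p = 0.00904) and NCBP2 (-0.52, adjusted p = 1.17e-04) were called lower and CHUK was not called (-0.05, adjusted p = 0.727). The distances describe these libraries, and no test was made on them.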

How the data were processed

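For each assay the authors deposited 1 table of unnormalized read counts by gene symbol. Tools named in the submitters' processing notes are STAR, Bowtie2, Salmon, featureCounts and Trim Galore, with the build hg38. The sources used here do not give their roles or versions, the annotation, the strand setting or any limit to coding exons or footprint length. If counting ran over whole genes, intronic and small RNA reads would be included in a gene's footprints.

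Counts were tested with edgeR 4.0.16 (R 4.3.3): TMM scaling, filterByExpr, the quasi-likelihood F test and Benjamini-Hochberg adjustment over all genes. Each standard error was obtained as |log2 change|/sqrt(F), and 95% intervals use the test's degrees of freedom. In the interaction model both assays share a gene's dispersion, although footprints varied more. Alternatives were RLE scaling, DESeq2 1.42.0, limma-voom (limma 3.58.1), other count filters, a replicate block and leaving out each library. Each fit was first tested on simulated data with planted changes. Of planted 4-fold changes it recovered 61 of 65 in RNA-seq, 1 of 54 in Ribo-seq and 0 of 63 for footprints per RNA. The planted changes were few, while in the data 1016 of 11853 genes were called in Ribo-seq and 414 of 10648 for footprints per RNA. Recovery in the data may therefore differ. RPS29 itself was called lower in Ribo-seq (log2 change -2.41, edgeR adjusted p = 0.0193). Given the wide 95% intervals of the 8 genes, the absence of calls in the last 2 comparisons cannot be read as absence of change. The 8 genes and the lists were chosen with earlier results of these data known. The text names the 8 genes, RPS29, called members of the further lists, and the 3 nearest profiles to ODC1 and OAZ1. Any other gene was named after its values were seen. Symbols were matched to RefSeq (17693 of 17927 in RNA-seq, 13956 of 14019 in Ribo-seq).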

Additional observations from a re-analysis of the deposited data

How the results depend on the processing

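Over the 8 genes, the RNA change kept its direction under all 10 alternatives for each gene, and OAZ1, OAZ2 and SRM kept their calls under all of them (log2 change -0.51 to -0.38, -0.62 to -0.49 and 0.59 to 0.66). Calls of ODC1, AMD1 and AZIN1 did not, as given above. Leaving out 1 library gave 1 to 3 of the 8 higher and 2 to 4 lower. Over all genes it gave 1225 to 2739 higher and 1496 to 2876 lower, and over the further pathway genes 2 to 6 higher and 1 to 3 lower. With the replicate block the further pathway genes had 1 lower, and the 8 genes 3 lower. DESeq2 called 1589 genes higher and 1911 lower.

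In Ribo-seq 0 of the 8 genes were called under every alternative, though with at least 50 counts in every library 1 of them, AZIN1, was left to test, there and for footprints per RNA. Over all genes 944 were called higher and 72 lower, of 11853 tested. With at least 50 counts in every library 239 were higher and 53 lower, of only 1938 tested. Among genes with at least 10 RNA CPM 339 were higher and 27 lower, of 9099 tested. The numbers became 1148 higher and 171 lower with DESeq2, and 670 higher and 171 lower with limma-voom. With the replicate block they became 1402 higher and 397 lower, and 1 further pathway gene was lower. Leaving out 1 library gave 247 to 694 higher and 5 to 53 lower. Leaving out 1 library, the log2 change ranged from -1.33 to 0.029 for ODC1 (above 0 without shRPS29 replicate 1), from -0.46 to 1.40 for SRM and from -0.19 to 7.37 for SAT1 (both below 0 without shRPS29 replicate 2; the highest SAT1 value, without shCONT replicate 1, is set against a library with 0 counts).

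For footprints per RNA the 321 genes higher and 93 lower became 1015 and 675 with DESeq2, 495 and 180 with limma-voom, 178 and 53 among genes with at least 10 RNA CPM, and 22 and 0 with the replicate block. With at least 50 counts 115 were higher and 83 lower, of only 1745 tested in place of 10648. Without a filter 220 were higher and 58 lower, of 12873 tested. Leaving out 1 library gave 0 to 2030 higher and 0 to 1707 lower. Calls among the 8 genes came only without Ribo-seq shRPS29 replicate 2, where the numbers over all genes were also highest. Of the further pathway genes DESeq2 called 1 higher and 3 lower, limma-voom 1 higher and 2 lower, at least 50 counts 1 lower, and leaving out 1 library 0 to 2 higher and 0 to 5 lower. Leaving out 1 library, the log2 change ranged from -2.82 to 0.50 for OAZ1 (above 0 without Ribo-seq shRPS29 replicate 1 or shCONT replicate 2), from -0.88 to 0.92 for SRM (below 0 without Ribo-seq shRPS29 replicate 2 or shCONT replicate 2) and from -0.42 to 8.82 for SAT1 (below 0 without Ribo-seq shRPS29 replicate 2). The causes were not tested. Deviations of the 2 replicates numbered 1 from their group means correlated across genes at -0.0384 in RNA-seq and 0.108 in Ribo-seq. With 2 libraries per group, replicate 2 only mirrors replicate 1. The numbers were thus not shown to pair libraries, and this value alone does not settle it. Where leaving out a library leaves 1 in a group, that library is assumed to vary like the others.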
